A study of Mus musculus with 2 samples.

Results

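EC_IMMAT is the class name that the study's authors gave to what is taken here as the immature endothelium of the injured nerve bridge, the tissue that joins the stumps of a wounded sciatic nerve. Its members were the cells carrying that name in the authors' cell annotation of the library taken 7 days after injury, matched by library and barcode, and they numbered 260 of 1274 injured endothelial cells (20.4%, 95% interval 18.2 to 22.7%) and of 1362 annotated injured cells, after cells with a far deeper partner barcode in the other library were left out. The annotation named 2301 cells in both libraries before that step. The other 1014 injured endothelial cells, in 8 classes with names that begin with EC_, were the cells they were set against. Injured and intact cells alike came from adult mice with Cdh5(PAC)-CreERT2, a tamoxifen-inducible Cre driven by the endothelial cadherin gene Cdh5, and a tdTomato reporter at the R26 locus (Chd5CreER/R26-TdTomato in the labels). A cell was thus marked only if it or its parent expressed Cdh5 when the Cre was induced. Injured cells were taken from the bridge and intact cells from uninjured sciatic nerves, tissue was pooled and digested, and tdTomato-positive cells without CD45, a surface protein of white blood cells, were sorted. There was 1 library of pooled animals per condition, so nothing was tested. Intervals in brackets are exact 95% intervals for counting error and do not cover variation between animals.

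New vessels form by sprouting. A tip cell leads the sprout under the pull of vascular endothelial growth factor (VEGF), dividing stalk cells follow it, and the plexus that results is later remodelled into arteries, capillaries and veins. Endothelial cells that have left the tip and not yet taken an arterial, capillary or venous identity are often called immature. In the wounded nerve such vessels cross the bridge ahead of the Schwann cells and axons that use them as tracks.

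Depth differed little between EC_IMMAT and the other classes together, and more between single classes. Injured EC_IMMAT cells had a median of 11256 UMIs (unique molecules counted) and 3.25% mitochondrial UMIs, against 11790.5 UMIs and 3.67% in the other injured endothelial cells, and 6 and 45 cells had fewer than 3000 UMIs. By class, the median was 24212.5 UMIs in EC_PROLIF, 16011.5 in EC_TIP, 7906 in EC_BAR and 5208 in EC_CAP-PV+, the highest and lowest among the classes being EC_PROLIF and EC_CAP-PV+. The libraries shared 298 cell barcodes, and a cell was left out where the same barcode held at least 5 times more UMIs in the other library. That removed 48 of 1322 injured endothelial cells, none of them EC_IMMAT, although 17 EC_IMMAT barcodes also occurred in the intact library at a lower depth. It removed 48 of the 52 intact cells named EC_IMMAT, which held a median of 1.32% of their partner's UMIs (range 1.20 to 1.47%). The 4 that stayed had 682, 1481, 2592 and 3536 UMIs, with 0 Aplnr, 5 Rgcc, 19 Plvap and 4 Col4a1 UMIs among 8291, and were too few to compare with the injured cells.

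The class was described first by the 4 genes given as its markers. Since the authors made the classes from these same cells, the levels of these genes are no test of the class. Aplnr (chr2:85136225-85139923, + strand, GRCm38) encodes the receptor for the peptide apelin on sprouting and venous endothelium. Its level was 670 CPM (UMIs of the gene in 1000000 UMIs summed over a class; 645 to 695) in EC_IMMAT, against 473 CPM in the other classes together. It was the highest level of the 8 classes with at least 20 cells, ahead of 623 CPM in EC_VEN-PV+ (601 to 646), with 553 CPM in EC_PROLIF, 528 in EC_TIP, 498 in EC_CAP-PV-, 304 in EC_VEN-PV-, 98.6 in EC_BAR and 68.4 in EC_ART. The intervals of EC_IMMAT and EC_VEN-PV+ touched, and every other class of that size lay lower, with the arterial and barrier classes far below. The remaining class, EC_CAP-PV+, had 13 cells and 645 CPM (487 to 838).

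Rgcc (chr14:79288756-79301645, - strand) encodes a regulator of cell cycle progression that is induced in endothelium by hypoxia. It stood at 489 CPM (468 to 511) in EC_IMMAT, against 268 CPM in the other classes together, a ratio of 1.83 (1.73 to 1.93). EC_CAP-PV- with 818 CPM and EC_TIP with 630 CPM were higher, EC_PROLIF with 279, EC_ART with 199, EC_BAR with 132, EC_VEN-PV+ with 89.6 and EC_VEN-PV- with 15.3 CPM were lower, and no interval overlapped that of EC_IMMAT. Rgcc thus split the classes that shared high Aplnr: the venous class nearest to EC_IMMAT in Aplnr was among the lowest in Rgcc.

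Plvap (chr8:71497765-71511752, - strand) encodes the protein of the diaphragms that span fenestrae and caveolae, and Col4a1 (chr8:11198423-11312826, - strand) a chain of the collagen of basement membranes. Plvap reached 1545 CPM (1507 to 1583) in EC_IMMAT, below 1716 CPM in EC_VEN-PV+, near 1637 CPM in EC_CAP-PV- (1561 to 1716) and above the 714 CPM of EC_TIP. Col4a1 reached 2639 CPM (2589 to 2689), level with 2673 CPM in EC_PROLIF (2624 to 2723) and below 3912 CPM in EC_TIP and 3241 CPM in EC_CAP-PV-. All 4 markers were higher in EC_IMMAT than in the pooled other classes, by 1.11 times for Col4a1 (1.09 to 1.14) to 1.83 times for Rgcc, and Aplnr alone was highest there. The tdTomato reporter was level, at 96.1 CPM in EC_IMMAT and 96.6 CPM in the others.

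**Figure D1:**
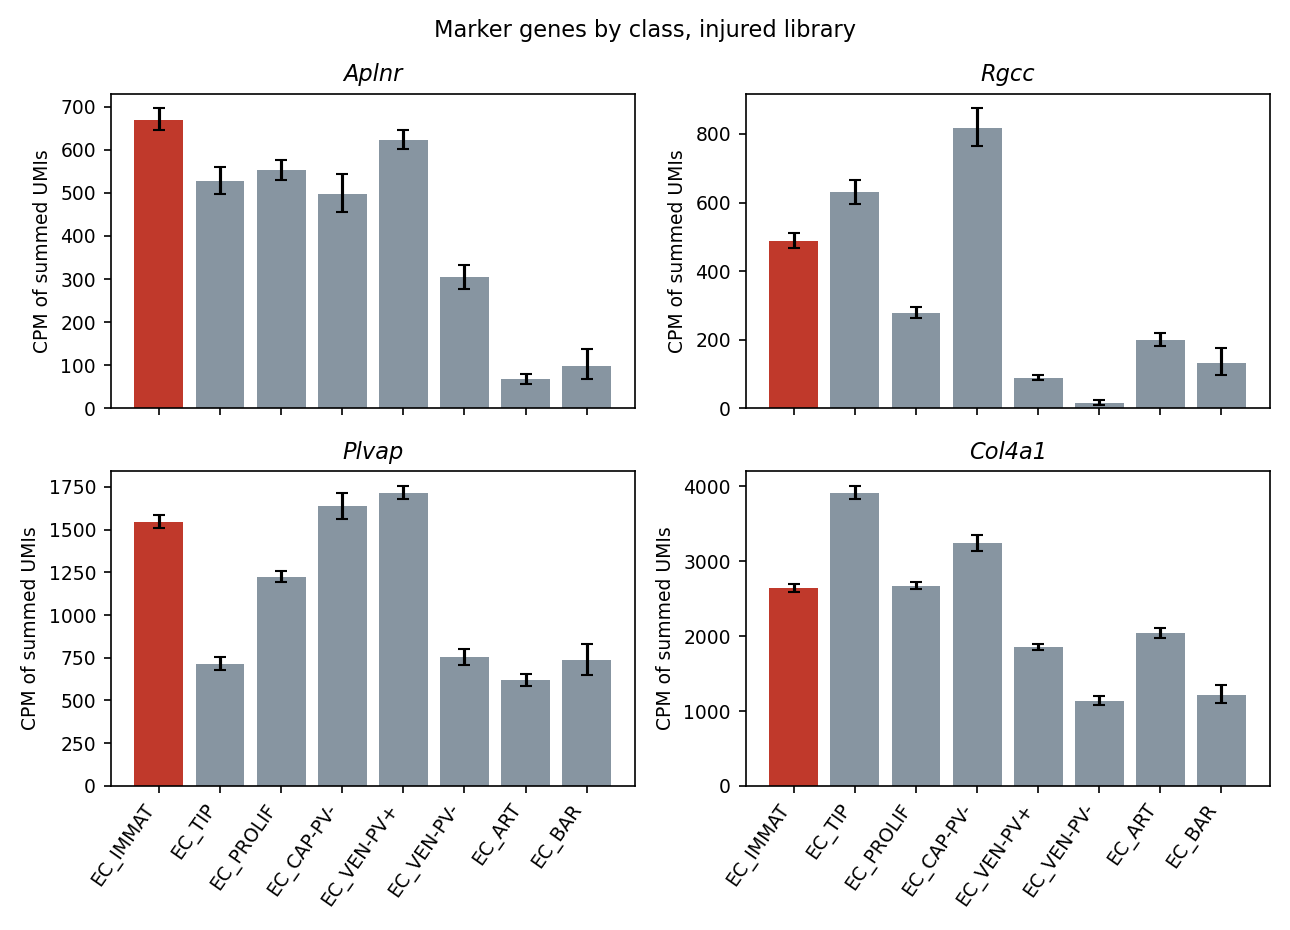
Level of the 4 marker genes (CPM of UMIs summed over each class, vertical axes) in 8 injured endothelial classes (horizontal axes), EC_IMMAT in red; error bars are exact 95% Poisson intervals, which cover counting error only. EC_IMMAT is highest in Aplnr (670 CPM) and lies between other classes in Rgcc, Plvap and Col4a1.

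Markers were also counted within single cells. After each cell was thinned at random to 3000 UMIs, Aplnr was found in 204 of 254 EC_IMMAT cells (80.3%) and Rgcc in 155 (61.0%), and 130 cells (51.2%, 44.9 to 57.5%) had both. Without thinning, 93.8% of EC_IMMAT cells had Aplnr and 83.5% had Rgcc. In EC_VEN-PV-, where Rgcc was lowest, 2.59% of thinned cells had Rgcc (13.2% without thinning, median depth 9394 UMIs against 11256 in EC_IMMAT). Aplnr, lowest in EC_ART, was found in 10.7% of its thinned cells (21.5% without thinning, median depth 11107 UMIs). Both genes were found together in 54.7% of EC_TIP cells, 43.7% of EC_CAP-PV-, 33.1% of EC_PROLIF, 12.4% of EC_VEN-PV+, 6.06% of EC_BAR, 5.34% of EC_ART and 1.72% of EC_VEN-PV- cells. The pair was thus more frequent in EC_IMMAT than in the venous, arterial, barrier and proliferating classes, and its interval overlapped those of EC_TIP (44.2 to 65.0%), EC_CAP-PV- (31.9 to 56.0%) and the 12 EC_CAP-PV+ cells, of which 8 had both. All 4 markers were present together in 128 EC_IMMAT cells (50.4%, 44.1 to 56.7%) and in 47.4% of EC_TIP cells (37.0 to 57.9%).

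A venous gene gave a combination with a different order. Selp encodes P-selectin, which lets white blood cells roll on the vessel wall and is typical of venules, and it was found in 89 of 254 thinned EC_IMMAT cells (35.04%), 317 of 354 EC_VEN-PV+ cells (89.5%) and 5 of 95 EC_TIP cells (5.26%). Without thinning 54.2% of EC_IMMAT cells had Selp, and in EC_ART, which should lack it, 3.05% of thinned cells and 7.64% of unthinned cells did. Cells with both Selp and Rgcc made up 54 of 254 in EC_IMMAT (21.3%, 16.4 to 26.8%). They made up 13.3% of EC_VEN-PV+ (9.92 to 17.3%), 10.8% of EC_PROLIF, 8.33% of EC_CAP-PV+, 7.04% of EC_CAP-PV-, 3.16% of EC_TIP, 3.03% of EC_BAR, 2.59% of EC_VEN-PV- and 0 of 131 EC_ART cells, where a limit of 3 cells allows a share of up to 2.29% with a UMI of both genes and the exact interval reaches 2.78%. The share was highest in EC_IMMAT, with an interval that overlapped those of EC_VEN-PV+ and EC_PROLIF (6.44 to 16.8%) at its lower end and that of the 12 EC_CAP-PV+ cells. In EC_IMMAT Selp alone was found in 35.04% and Rgcc in 61.0% of thinned cells. Whether the pair was more frequent than these single shares give was not tested.

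Across all genes EC_IMMAT differed from the other classes mainly in genes that were lower. Of 8047 genes measured (a mean of at least 10 CPM over both groups), 0 (0%) were at least 2-fold higher in EC_IMMAT than in the other injured endothelial cells and 140 (1.74%) were at least 2-fold lower, on log2 ratios with 5 CPM added to both values. The classes were made by the authors from these same cells, so the counts describe the class and are no test of it. The median log2 ratio was -0.05, 83.3% of genes lay within 1.25-fold, and the highest ratio was 0.88, for Akr1b8, an aldo-keto reductase named here for that value (75.6 against 38.8 CPM). Set against all other injured endothelial cells in the same way, every other class had many genes at least 2-fold higher. There were 118 in EC_CAP-PV-, 152 in EC_TIP, 166 in EC_VEN-PV-, 169 in EC_VEN-PV+, 295 in EC_ART, 317 in EC_PROLIF, 351 in EC_BAR and 1043 in the 13 cells of EC_CAP-PV+. EC_VEN-PV+ had more cells (362) than EC_IMMAT, and EC_PROLIF had a similar sum of UMIs (4202429, against 4100264 in EC_IMMAT). The count of 0 in EC_IMMAT was between 1 and 12 under 8 of 15 alternatives, with 2 when EC_PROLIF was left out and 10 when cells with mitosis genes were.

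**Figure D2:**
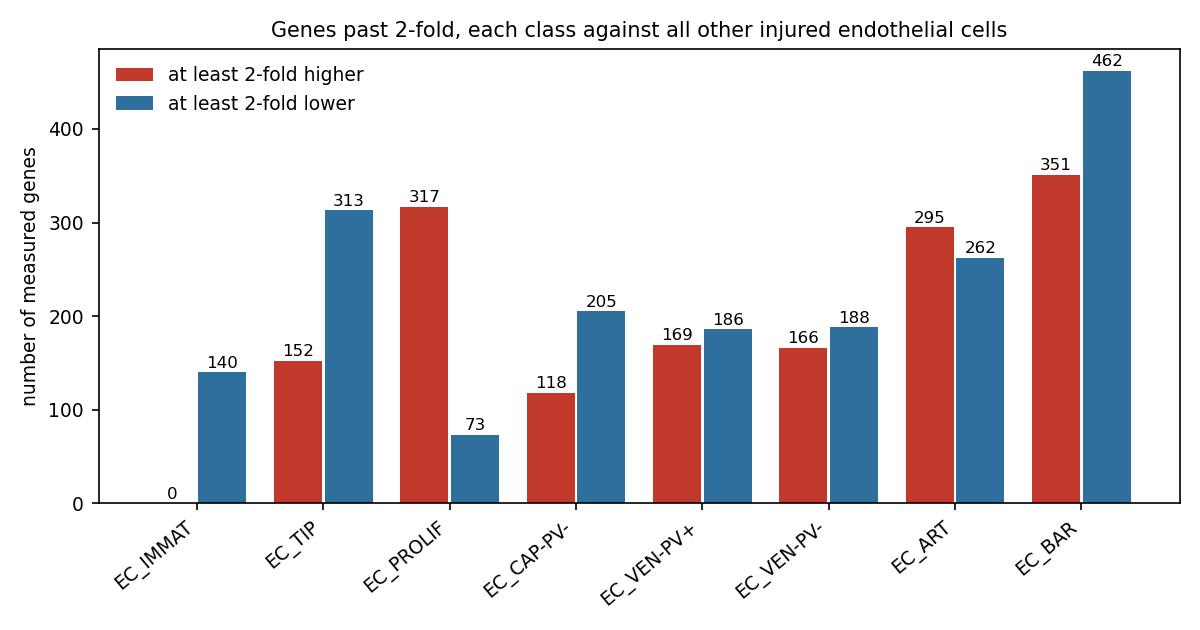
Number of measured genes (vertical axis) at least 2-fold higher (red) and at least 2-fold lower (blue) in each of 8 injured endothelial classes (horizontal axis) than in all other injured endothelial cells; there are no replicates and no error bars. EC_IMMAT has 0 higher and 140 lower genes, and the other 7 classes have between 118 and 351 higher genes.

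At the lower threshold of 1.5-fold, added because no gene passed 2-fold, 15 genes (0.186%) were higher in EC_IMMAT. The genes with the highest ratios at 100 CPM or more were led by Rgcc. Sept4, a septin of the cytoskeleton, followed with 189.7 CPM in EC_IMMAT and 107 CPM in the other classes, a ratio of 1.77 (1.62 to 1.92). Gmpr, a reductase that turns guanosine to inosine monophosphate, had 100.2 and 56.7 CPM, a ratio of 1.77 (1.57 to 1.99). Fam167b had 406 and 261 CPM (1.56-fold, 1.47 to 1.65). Another 10 genes of that ranking had ratios between 1.33 and 1.42. They were Aplnr, the phosphatase Ptpn18, the depalmitoylase Abhd17a, Maoa, an enzyme that breaks down monoamines, the nucleotidase Nt5c, Bambi, a decoy receptor for bone morphogenetic proteins, the noncoding RNA Zfas1, the protocadherin Pcdh17, BC028528 and the matrix protein Vwa1.

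EC_TIP was above EC_IMMAT in 5 of the genes named, Rgcc among them. The others were Vwa1 (355 CPM in EC_IMMAT and 506 CPM in EC_TIP), Pcdh17 (387 and 453 CPM), Nt5c (167 and 187 CPM) and Abhd17a (259 and 278 CPM). Sept4, Gmpr, Fam167b, Aplnr and Ptpn18 were higher in EC_IMMAT than in each of the other 7 classes with at least 20 cells. The margins were narrow: Gmpr had 100.2 CPM in EC_IMMAT and 67.5 CPM in EC_TIP, the next class, and Ptpn18 had 239 CPM in EC_IMMAT and 190 CPM in EC_TIP. Of the 8047 genes, 456 (5.67%) were highest in EC_IMMAT among those 8 classes and 475 (5.90%) were lowest, against 778 to 1434 highest genes in the other 7 classes when each was measured in the same way.

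Some genes were lower in EC_IMMAT than in each of those classes. Tubb4b, a tubulin, had 93.4 CPM in EC_IMMAT, 463 CPM in EC_PROLIF and between 111 and 183 CPM in the rest of those classes. Emp1, a membrane protein, had 260 CPM in EC_IMMAT, against 318 CPM in EC_PROLIF, the next lowest. Clic4, a chloride channel protein with a part in the opening of vessel lumens, had 260 CPM in EC_IMMAT, against 300.4 CPM in EC_TIP. Rock2, a kinase that drives actomyosin contraction, had 117 CPM in EC_IMMAT and at least 138 CPM in each other class, and Lmna, the nuclear lamin A and C gene, had 439 CPM and at least 529 CPM. Each of these was lower than in the other classes together, by 1.29 times for Lmna (1.23 to 1.36) to 2.33 times for Tubb4b (2.10 to 2.60). For Tubb4b the pooled value includes the high level of EC_PROLIF.

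Genes were then grouped by role in 32 lists, whose medians stand beside a median of -0.05 over all 8047 genes. Counts of members at least 2-fold lower stand beside 140 of all 8047 genes (1.74%). No list had a member at least 2-fold higher in EC_IMMAT in the comparison as reported. Among the alternatives, a mitosis gene passed 2-fold with EC_PROLIF left out. Rgcc, a capillary gene, did so with EC_BAR and both EC_CAP classes left out (log2 ratio 1.09). The lists of arterial genes, mitosis genes, leukocyte adhesion genes and DNA synthesis genes had the lowest medians.

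Arterial identity was low. Of 18 arterial genes 16 were measured, of which 10 were at least 2-fold lower in EC_IMMAT, 0 were higher, and the median log2 ratio was -1.30. Eln, which encodes elastin of the arterial wall, had 21.7 CPM in EC_IMMAT and 192 CPM in the other classes, 8.86-fold lower (7.17 to 11.1). Stmn2, a microtubule regulator, had 13.9 and 116 CPM (8.35-fold lower, 6.41 to 11.1), and Mgp, an inhibitor of calcification, had 91.0 and 432 CPM (4.75-fold lower, 4.28 to 5.28). The genes were not restricted to EC_ART: Eln was highest in EC_VEN-PV+ (358 CPM) and Mgp in EC_BAR (1361 CPM). Summed over the list, EC_IMMAT had 965 CPM, above EC_TIP with 694 CPM, below EC_PROLIF with 1065 CPM and far below EC_ART with 8201 CPM. Sox17, a transcription factor of arterial endothelium, had a log2 ratio of -0.17, with 182 CPM in EC_IMMAT and 205 CPM in the others.

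Mature venous and leukocyte-recruiting genes were partly present. Of 13 venous genes, all measured, 2 were at least 2-fold lower and the median log2 ratio was -0.60. Ackr1, a chemokine-binding receptor of venules, had 55.4 CPM in EC_IMMAT and 271 CPM in the other classes, 4.89-fold lower (4.28 to 5.61), and Selp had 231 and 597 CPM, 2.58-fold lower (2.41 to 2.76). Both were above their level in EC_TIP, where Ackr1 had 5.07 CPM and Selp 41.6 CPM, and below EC_VEN-PV+, with 632 and 1385 CPM. Aplnr, Emcn and Flrt2 were the members above 0, and Flrt2, a guidance ligand, had 31.2 CPM in EC_IMMAT and 22.7 CPM in the others. The list summed to 3842 CPM in EC_IMMAT, the third highest after 8352 CPM in EC_VEN-PV+ and 8299 CPM in EC_VEN-PV-.

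Of 17 genes for leukocyte adhesion and chemokines 12 were measured, 3 were at least 2-fold lower, none was above 0, and the median log2 ratio was -0.79. Besides Ackr1 and Selp, which stand in both lists, the member was Cxcl10, an interferon-induced chemokine, with 5.85 CPM in EC_IMMAT and 47.2 CPM in the other classes (8.06-fold lower, 5.38 to 12.7). Cxcl10 was lower in EC_IMMAT than in any other class with at least 20 cells.

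The low values of cell cycle genes rested on a single class. Of 24 mitosis genes 19 reached the minimum level, most of them through EC_PROLIF. Of these, 17 were at least 2-fold lower in EC_IMMAT, with a median log2 ratio of -2.30, and so were 6 of 19 measured genes of DNA synthesis (22 listed), with a median of -0.78. Birc5, a part of the complex that separates chromosomes, had 12.9 CPM in EC_IMMAT and 101 CPM in the other classes. With EC_PROLIF left out of the others, 0 of the mitosis genes were 2-fold lower, 1 was 2-fold higher, and the log2 ratio of Birc5 was 0.67 in place of -2.56. That of Ube2c, an enzyme of mitotic exit, was 0.74 in place of -2.76.

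Some EC_IMMAT cells held mitosis genes. At 3000 UMIs per cell, 29 of 254 EC_IMMAT cells (11.4%, 7.78 to 16.0%) held at least 2 different mitosis genes. The share was 87.3% in EC_PROLIF, 7.37% in EC_TIP (3.01 to 14.6%), 6.11% in EC_ART, 5.17% in EC_VEN-PV-, 4.23% in EC_CAP-PV- and 3.39% in EC_VEN-PV+ (1.76 to 5.85%), and 0 of 33 EC_BAR cells were such cells, where a limit of 3 cells allows a share of up to 9.09% and the exact interval reaches 10.6%. The interval of EC_IMMAT lay above that of EC_VEN-PV+ and below that of EC_PROLIF, and it overlapped those of all the other classes, so its share was not set apart from theirs. Ccnd1, the D-type cyclin that carries growth signals into the cycle, had 205 CPM in EC_IMMAT and 171 CPM in the other classes (1.20 times, 1.11 to 1.30), and Ccnd2 had 16.3 and 54.6 CPM (3.34-fold lower, 2.60 to 4.35).

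VEGF receptors lay on both sides of the other classes. The main VEGF receptor Kdr had 383 CPM in EC_IMMAT and 337 CPM in the other classes (1.14 times, 1.08 to 1.20), and its coreceptor Nrp1 had 263 and 241 CPM (1.09 times, 1.02 to 1.17). The receptor Flt1 was lower, with 386 and 460 CPM (0.839 times, 0.794 to 0.886), as was the coreceptor Nrp2, with 218 and 273 CPM (0.800 times, 0.744 to 0.860), both named after their values were seen. Among the ligands Pgf, placental growth factor, had 1.95 CPM in EC_IMMAT and 22.6 CPM in the others, where EC_TIP had 121 CPM, and Vegfc had 7.56 and 22.7 CPM. These ligands were the 2 of 8 measured genes of the VEGF list that were 2-fold lower, 5 of the 8 were below 0, and the median was -0.28. Apelin itself (Apln), the ligand of Aplnr, had 65.1 CPM in EC_IMMAT and 87.0 CPM in the others, with 239 CPM in EC_TIP, so among classes with at least 20 cells the receptor was highest in EC_IMMAT and the ligand in EC_TIP.

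Of 19 tip cell genes, all measured, 3 were at least 2-fold lower in EC_IMMAT, 0 were higher, and the median log2 ratio was -0.16. The 3 were Pgf, Cxcr4, a chemokine receptor of tip cells, with 15.4 CPM in EC_IMMAT and 39.3 CPM in the other classes, and Ednrb, an endothelin receptor, with 7.80 CPM and 21.1 CPM. Esm1, a secreted tip cell proteoglycan, was level, with 44.6 CPM in EC_IMMAT and 44.2 CPM in the others, and 157 CPM in EC_TIP. In the Notch pathway, which restrains sprouting, 1 of 12 measured genes was 2-fold lower, the ligand Jag1 with 23.4 CPM in EC_IMMAT and 72.6 CPM in the others. Among classes with at least 20 cells Jag1 was lowest in EC_IMMAT and highest in EC_ART (276 CPM), and the median of the list was -0.29.

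Capillary and barrier genes were low beside the classes that carry those identities. Of 10 measured capillary genes (15 listed) 1 was 2-fold lower, 3 were above 0 and the median log2 ratio was -0.24. The list summed to 4184 CPM in EC_IMMAT, below EC_CAP-PV- with 24569 CPM and above EC_TIP with 3908 CPM. A venous class, EC_VEN-PV+, was also above EC_IMMAT, with 8393 CPM. Rgcc, which led the ratios of the class, is on this list and had 489 CPM, against 818 CPM in EC_CAP-PV-. Aqp1, a water channel, had 246 CPM in EC_IMMAT and 727 CPM in the others, and was highest in EC_VEN-PV- (1676 CPM). Fabp4, a fatty acid carrier, had 2283 CPM in EC_IMMAT, against 16981 CPM in EC_CAP-PV- and 51.5 CPM in EC_VEN-PV-. It made up most of the sum of the capillary list in EC_IMMAT and in EC_CAP-PV-. Of 11 measured barrier genes (21 listed) 3 were 2-fold lower, Spock2, a proteoglycan, Lsr, a receptor at the points where several cells meet, and Cgnl1, a junction protein. The glucose carrier Slc2a1 had 35.6 CPM in EC_IMMAT and 73.5 CPM in the others, where EC_BAR had 640 CPM.

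Some genes that respond to flow and none of the genes that respond to acute stimuli passed 2-fold. In the flow list 3 of 10 measured genes were 2-fold lower, Aqp1, Klf4 and Ptgs1, with a median of -0.41. That share was above the 1.74% of all measured genes. Klf4, a transcription factor induced by laminar flow, had 189 CPM in EC_IMMAT, 174 CPM in EC_TIP and 210 CPM in EC_PROLIF, against 375 to 927 CPM in the other 5 classes with at least 20 cells. Of 15 measured immediate early genes 0 were past 2-fold, 14 were below 0 and the median was -0.41. Fosb had 190 CPM in EC_IMMAT, its lowest level in the 8 classes, and 372 CPM in the others. For the list as a whole EC_IMMAT was not lowest: immediate early genes took a median of 0.667% of the UMIs of an EC_IMMAT cell at 3000 UMIs, against 0.633% in EC_PROLIF and 0.533% in EC_TIP.

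Matrix and housekeeping genes were close to the other classes. Of 18 measured basement membrane genes 1 was 2-fold lower, Lama3, a laminin chain, and the median was -0.06. The list held 10527 CPM in EC_IMMAT, level with 10587 CPM in EC_PROLIF and below 14788 CPM in EC_TIP. Glycolysis genes had a median of 0.07 over 15 measured genes and pan-endothelial genes a median of 0.03 over 14, with none past 2-fold in either list. Among 28 measured endothelial transcription factors none was past 2-fold and the median was -0.17. The highest was Lyl1, a helix-loop-helix factor, with 22.2 CPM in EC_IMMAT and 12.6 CPM in the others (1.76 times, 1.36 to 2.27).

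The other lists had medians between -0.51 and 0.05. They held 2 of 17 measured members at least 2-fold lower for matrix proteases and their inhibitors, 2 of 26 for actin and microtubule genes, 2 of 18 for interferon-stimulated genes, 2 of 12 for D cyclins and cell cycle inhibitors, and 1 each for integrins, endothelial junctions, TGF-beta and BMP, guidance molecules, the IGF axis and signals to neighbouring cells. The lists for apelin and angiopoietin, collagen processing, caveolae, YAP targets, MHC genes and imprinted growth genes had 0. Igf1, insulin-like growth factor, had 32.9 CPM in EC_IMMAT and 107 CPM in the others, and Ptn, the growth factor pleiotrophin, had 12.9 and 59.9 CPM.

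**Figure D3:**
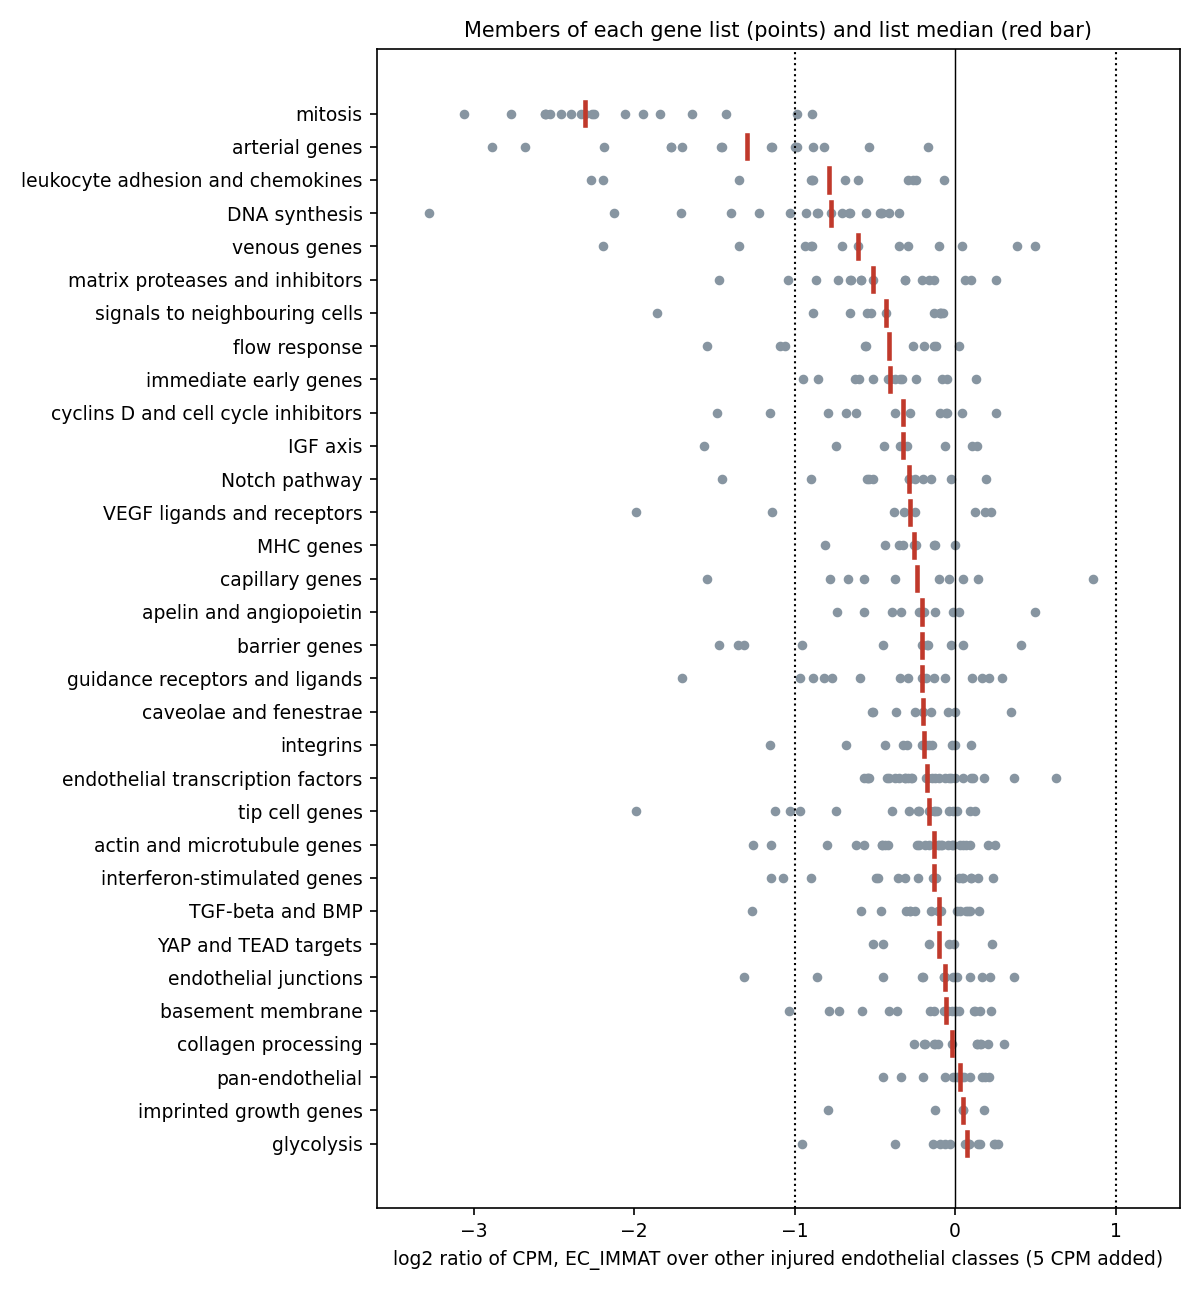
Log2 ratio of EC_IMMAT over the other injured endothelial classes (horizontal axis, 5 CPM added to both) for each measured member of 32 gene lists (points, 1 row per list) with the median of the list (red bar); dotted lines mark 2-fold. No point lies beyond 2-fold on the right, and the mitosis and arterial lists have the lowest medians, -2.30 and -1.30.

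Markers of other cell types were scarce in EC_IMMAT. The fibroblast list summed to 33.4 CPM in EC_IMMAT and 38.8 CPM in the other classes, the pericyte and smooth muscle list to 34.1 and 67.8 CPM, the perineurial list to 38.8 and 83.8 CPM, the myeloid list to 17.6 and 39.5 CPM and the lymphatic list to 33.2 and 31.9 CPM. Schwann cell, neutrophil, lymphoid, skeletal muscle and adipocyte markers summed to at most 2.44 CPM in EC_IMMAT, and the 5 adipocyte markers were at 0 UMIs. Red cell and platelet markers summed to 3.17 CPM in EC_IMMAT and 57.1 CPM in the others, and reached 144.5 CPM in EC_VEN-PV+.

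The classes most like EC_IMMAT, by Pearson correlation of log2 CPM over measured genes, were EC_TIP and EC_VEN-PV+ (0.961 each) and EC_CAP-PV- (0.953). EC_IMMAT is part of the same library as each of them, so the values describe likeness only. Against EC_TIP, 119 of 7859 genes (1.51%) were at least 2-fold higher in EC_IMMAT and 150 (1.91%) at least 2-fold lower. The higher genes were led by Slco2a1, a prostaglandin carrier, with 133 CPM in EC_IMMAT and 8.63 CPM in EC_TIP (15.4-fold, 9.54 to 26.6), followed by Selp, the chloride channel regulator Clca3a1, Lrg1, a secreted modulator of TGF-beta signals, and Ace, the angiotensin-converting enzyme. The lower genes were led by Pgf, with 1.95 and 121 CPM (61.9-fold lower, 30.9 to 145), Cxcr4 with 15.4 and 199.9 CPM, and the granule protein gene Chga with 81.9 and 739 CPM. Dapk2, a kinase, and Adm, adrenomedullin, completed the first 5.

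Against EC_VEN-PV+, 54 of 7946 genes (0.68%) were at least 2-fold higher in EC_IMMAT and 201 (2.53%) at least 2-fold lower. Igfbp3, an IGF-binding protein, had 123 CPM in EC_IMMAT and 16.6 CPM in EC_VEN-PV+ (7.41-fold, 5.84 to 9.52), and Cldn5, the main claudin of endothelial tight junctions, had 446 and 75.9 CPM (5.87-fold, 5.24 to 6.59). Rgcc, the chemokine Cxcl12 and Stmn1, a microtubule regulator, followed. The lower genes were Eln, Ackr1, Lbp, which binds bacterial lipopolysaccharide, Igf1 and Aebp1, a matrix-associated protein. Eln had 21.7 CPM in EC_IMMAT and 358 CPM in EC_VEN-PV+ (16.5-fold lower, 13.3 to 20.6).

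Against EC_CAP-PV-, 85 of 7916 genes (1.07%) were at least 2-fold higher in EC_IMMAT and 223 (2.82%) at least 2-fold lower. The higher genes were Clca3a1 with 215 and 37.1 CPM (5.79-fold, 4.2 to 8.2), the actin-binding protein gene Cotl1, the adhesion receptor Vcam1, the matrix protein Tgfbi and Selp. The lower genes were Rbp7, a retinol carrier, with 16.8 and 284 CPM, Cd36, a fatty acid receptor, with 213 and 1665 CPM, Fabp4 with 2283 and 16981 CPM, and Angptl4, an inhibitor of lipoprotein lipase, with 23.2 and 199.6 CPM. Ednrb, with 7.80 and 106 CPM, was the other of the lowest 5.

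EC_PROLIF, compared after the results were seen, differed from EC_IMMAT almost wholly in 1 direction. Of 8067 genes 8 (0.0992%) were at least 2-fold higher in EC_IMMAT and 313 (3.88%) at least 2-fold lower. All 46 genes of the mitosis and DNA synthesis lists reached the minimum level in this pair and were among the 313. That count was largely fixed in advance, since the class is named for proliferation and many of these genes reached the minimum only through EC_PROLIF. The lower genes were led by the histone gene Hist1h2ap with 13.9 CPM in EC_IMMAT and 1425 CPM in EC_PROLIF. Among the 8 higher genes was Mxd4, a partner of Max that opposes Myc, with 167 and 75.4 CPM (2.21-fold, 1.93 to 2.53), and Cldn5 had 446 and 234 CPM (1.90-fold, 1.76 to 2.06).

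EC_IMMAT lay between other classes in most genes that separated them. Of 201 genes that differed at least 4-fold between EC_TIP and EC_VEN-PV+, EC_IMMAT had a level between the 2 in 195 (97.0%), and its median position was 0.51, where 0 is the level of EC_VEN-PV+ and 1 that of EC_TIP on the log2 scale. EC_PROLIF lay between them in 98.0% of these genes with a median position of 0.50, EC_CAP-PV- in 76.1%, EC_ART in 61.7% and EC_VEN-PV- in 53.7%. Of 133 genes that differed 4-fold between EC_CAP-PV- and EC_VEN-PV+, EC_IMMAT lay between in 119 (89.5%) and EC_PROLIF in 90.2%. Of 233 genes that differed 4-fold between EC_ART and EC_VEN-PV+, the counts were 194 for EC_IMMAT (83.3%) and 92.7% for EC_PROLIF. In this last pair EC_CAP-PV- lay between in 77.3% and EC_VEN-PV- in 75.1%. By this share EC_IMMAT was closer to EC_CAP-PV- than to EC_PROLIF, whereas in the first 2 pairs it was closest to EC_PROLIF. By median position in the last pair it was closest to EC_PROLIF. The positions were 0.33 for EC_IMMAT, 0.35 for EC_PROLIF, 0.54 for EC_CAP-PV- and 0.16 for EC_VEN-PV-, where 0 is EC_VEN-PV+ and 1 is EC_ART. Sums over a class do not show how its cells vary, so single cells were examined next.

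Single cells held venous genes and tip cell genes at values between those of the venous and tip classes. At 3000 UMIs per cell, venous genes took a median of 0.367% of an EC_IMMAT cell's UMIs (quartiles 0.242 and 0.5%), 0.833% in EC_VEN-PV+ (0.6 and 1.1%) and 0.2% in EC_TIP (0.133 and 0.267%). Tip cell genes took 0.2% in EC_IMMAT (0.133 and 0.3%), 0.467% in EC_TIP (0.367 and 0.633%) and 0.133% in EC_VEN-PV+. The upper quartile of EC_IMMAT lay below the lower quartile of EC_VEN-PV+ for venous genes and below that of EC_TIP for tip cell genes. For capillary genes the order depended on the summary. They took a median of 0.233% in EC_IMMAT (0.1 and 0.425%), slightly below 0.267% in EC_TIP (0.167 and 0.55%) and below 0.767% in EC_VEN-PV+. Summed over each class, EC_IMMAT was between, with 4184 CPM against 3908 CPM in EC_TIP and 8393 CPM in EC_VEN-PV+. Arterial genes took a median of 0.0667% in EC_IMMAT, the same as in EC_TIP and EC_PROLIF, and 0.833% in EC_ART.

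**Figure D4:**
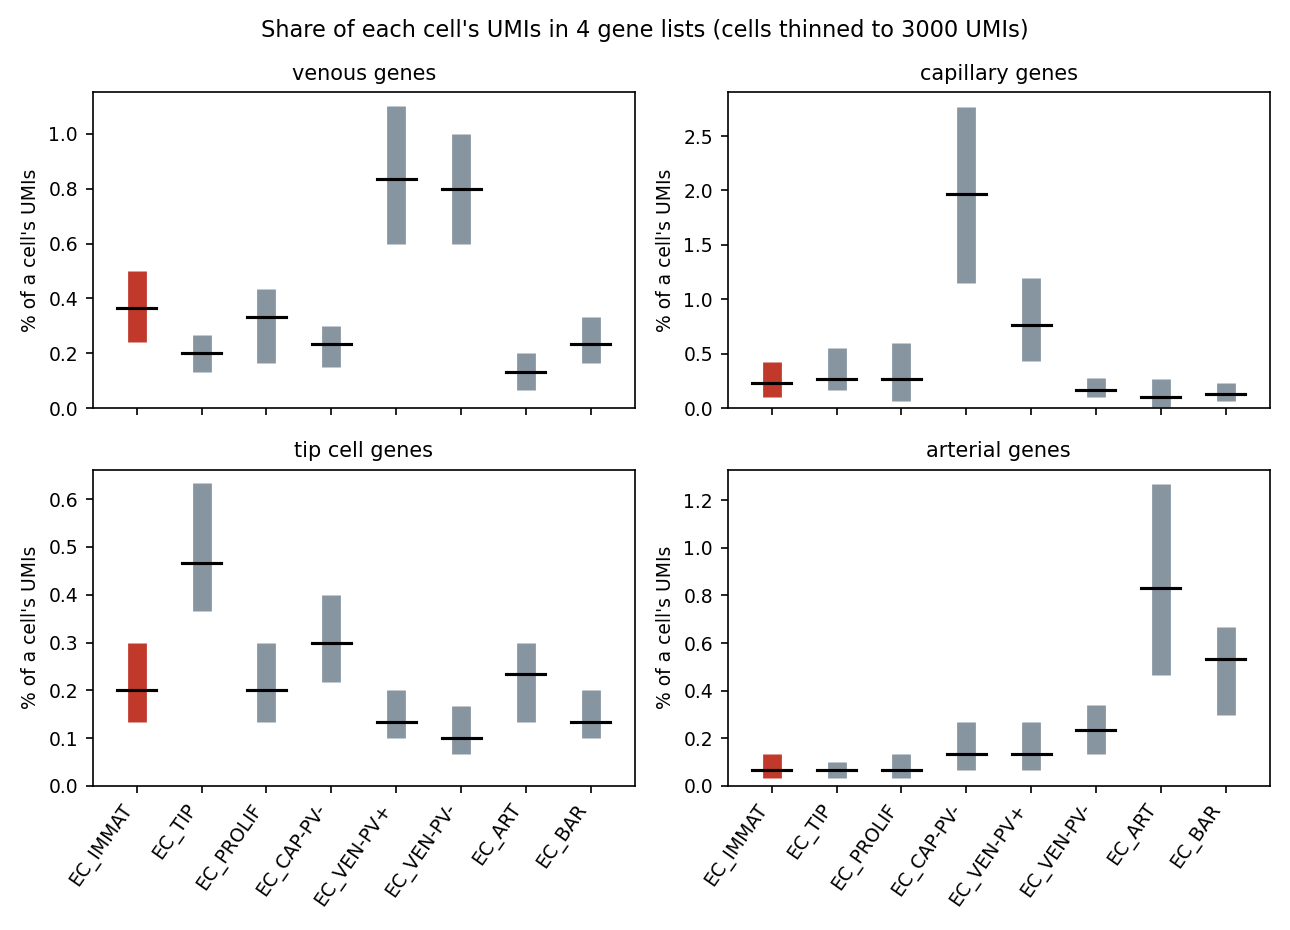
Share of a cell's UMIs that fell in 4 gene lists (vertical axes, % of 3000 UMIs) for 8 injured endothelial classes (horizontal axes), EC_IMMAT in red; bars run from the lower to the upper quartile over cells and black lines are medians. EC_IMMAT cells have venous shares between those of the venous classes and EC_TIP, and capillary, tip cell and arterial medians of 0.233, 0.2 and 0.0667%.

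Each cell was also compared with the mean profile of each class, with that cell left out of its own. Of 260 EC_IMMAT cells 123 (47.3%) correlated best with EC_IMMAT, 59 (22.7%) with EC_TIP, 27 with EC_VEN-PV-, 16 with EC_BAR, 15 with EC_CAP-PV-, 12 with EC_ART, 7 with EC_VEN-PV+ and 1 with EC_PROLIF. In the other classes with at least 20 cells the share closest to their own class was between 68.5% (EC_PROLIF) and 99.2% (EC_VEN-PV-). When all injured endothelial cells were clustered anew into 11 clusters, 1 cluster of 155 cells held 121 EC_IMMAT cells (46.5% of the class) and was 78.1% EC_IMMAT. Another 49 EC_IMMAT cells lay in a cluster of 111 with venous cells, 37 in a cluster of 85 of which 41.2% were EC_VEN-PV+, 29 in a cluster of 47, 14 in the cluster that held most EC_CAP-PV- cells, and 10 in 4 further clusters.

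The EC_IMMAT cells themselves fell into 5 groups at the chosen resolution, described here by their leading genes and not as cell types. Group 4, with 65 cells, had venous adhesion genes. Selp had 468 CPM there and 119 CPM in the rest of EC_IMMAT, Sele, E-selectin, had 127 and 33.4 CPM, and Vcam1 had 194 and 67.6 CPM. Slco2a1 and Clca3a1 were also higher, and of classes other than EC_IMMAT the nearest for 30 of its 65 cells was EC_VEN-PV-.

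Group 2, with 69 cells, had the highest Rgcc, 860 CPM against 333 CPM in the rest of the class. Its leading gene was Cxcl12 with 483 and 70.3 CPM, and the taurine carrier Slc6a6, glutamine synthetase (Glul), Apold1, the surface antigen gene Ly6c1 and Id1, a target of bone morphogenetic proteins, were higher as well. Selp, at 45.4 CPM in group 2 and 309.5 CPM in the rest, was low there and is named after its value was seen. Aplnr was lowest in this group, at 527 CPM, against 649 to 822 CPM in the other 4 groups. Of classes other than EC_IMMAT the nearest was EC_TIP for 24 and EC_BAR for 21 of the 69 cells.

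Group 3, with 56 cells, was the one nearest to EC_TIP. Chga had 221 CPM in group 3 and 46.5 CPM in the rest of EC_IMMAT, Angpt2, an angiopoietin made by sprouting endothelium, had 133 and 46.8 CPM, and Tagln, an actin-binding protein, had 299 and 62.4 CPM. Of classes other than EC_IMMAT the nearest was EC_TIP for 49 of the 56 cells. Apln was also highest in this group, at 116 CPM (94.5 to 142), against 23.6 CPM in group 5 to 89.9 CPM (61.5 to 127) in group 1. Other tip cell genes were higher in groups 5 and 2 than in group 3. Esm1 had 49.2 CPM in group 3, 73.5 in group 5 and 58.6 in group 2, Igfbp3 had 104, 236 and 184 CPM, and Nid2 had 54.0, 139 and 89.1 CPM. The whole tip cell list summed to 2442 CPM in group 3, near 2433 CPM in group 5 and 2295 CPM in group 2, with 1950 CPM in group 1 and 1850 CPM in group 4.

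Group 5, with 31 cells, was led by Gja4, an arterial and arteriolar connexin, with 131 CPM and 13.4 CPM in the rest. Efna1, an ephrin ligand, Mecom, a transcription factor of arterial endothelium, Igfbp3 and the basement membrane gene Nid2 were also higher. Despite these leading genes the nearest other class was EC_TIP for 21 of the 31 cells and EC_ART for 7. The arterial list summed to 1218 CPM in group 5, below 1475 CPM in group 2 and above 650 to 789 CPM in groups 1, 3 and 4. Cxcl12, the leading gene of group 2, is on that list. The mitochondrial enzyme gene Lars2 had 394 CPM in group 5 and 172 CPM in the rest. Immediate early genes summed to 2604 CPM in group 5, against 5426 to 8966 CPM in the other groups, and the inflammatory genes Cxcl1, Nfkbia and Icam1, named after their values were seen, were low, with Nfkbia at 259.9 CPM and 1340 CPM in the rest.

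Group 1, with 39 cells, was led by Mgp with 258 CPM and 75.05 CPM in the rest, Ackr1 with 135 and 47.8 CPM, and Hes1, a Notch target, with 197 and 87.9 CPM, and its nearest other class was EC_TIP for 18 and EC_VEN-PV- for 9 of the 39 cells. These cells differed in quality from the others: their median depth was 7390 UMIs and their median mitochondrial share 1.41%, against 11101 to 16904 UMIs and 3.27 to 3.75% in the other 4 groups. In them 412 of 7656 measured genes were at least 2-fold lower than in the rest of EC_IMMAT. The same count was 44 of 7790 in group 2, 122 of 7842 in group 3, 27 of 7835 in group 4 and 250 of 7861 in group 5. The part of depth and mitochondrial share in group 1 was not tested, and without its 39 cells, an alternative added after the groups were seen, the class again had 0 genes at least 2-fold higher. Cells with at least 2 mitosis genes occurred in all 5 groups, with 5, 10, 3, 7 and 4 cells in groups 1 to 5. All 4 marker genes were present in each group, with Plvap between 1268 and 1801 CPM and Col4a1 between 1995 and 3174 CPM.

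**Figure D5:**
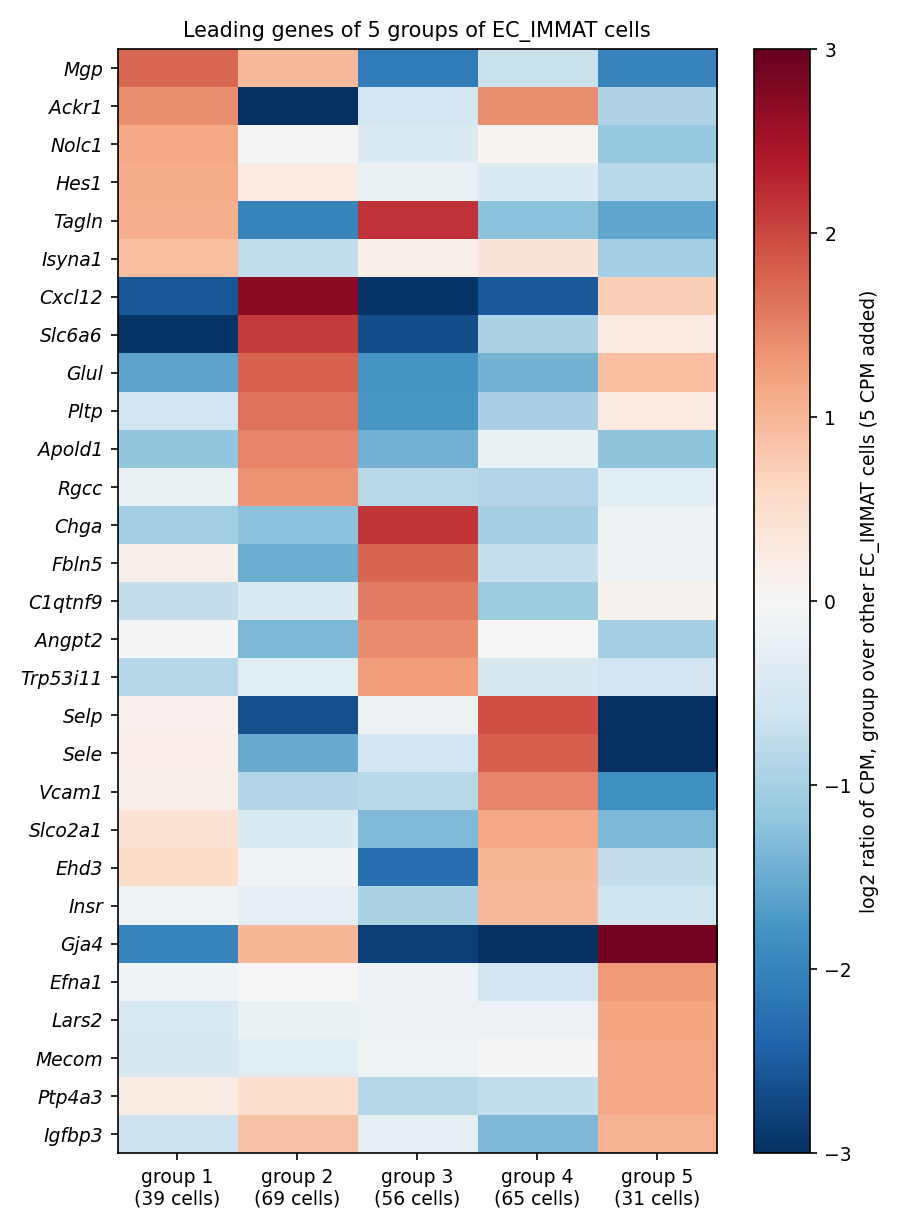
Log2 ratio of CPM (colour, 5 CPM added) in each of 5 groups of EC_IMMAT cells over the other EC_IMMAT cells (columns) for the leading genes of the groups (rows); the genes were picked for these ratios and have no error bars. Selp, Sele and Vcam1 are high in group 4, Cxcl12 and Rgcc in group 2, Chga and Angpt2 in group 3, Gja4 in group 5, and Mgp and Ackr1 in group 1.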

How the data were processed

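The authors deposited raw UMI counts and a table that gives a class for each annotated cell. Per the file headers, the matrices come from Cell Ranger 3.0.2. GRCm38 and mm10 are the builds in the submitters' processing notes, which also name Seurat (4.0.1) and another version of Cell Ranger (6.1.2). The filter on cells, the treatment of doublets and the method of classing are not given in the sources used here. The injured library held 2023 barcodes and 27157892 UMIs, the intact one 1618 and 9401203.

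Summed counts of a class were scaled to CPM. Poisson, Clopper-Pearson and conditional binomial 95% intervals cover counting error only. Named genes were the 15 highest and 15 lowest ratios over the other classes at 100 CPM and 30 UMIs or more, the 10 most above and below every other class, 5 each way against each of the 3 most similar classes, up to 3 each way per list and 8 per group, and the markers. The members and lists were chosen with earlier results of these data known; names outside the rule were chosen after their values were seen. Positions are from GENCODE M21 (GRCm38), where 50604 of 53380 features matched by ID and version. Groups were Leiden clusters (scanpy 1.11.5; 1500 variable genes, 20 components, 15 neighbours, resolution 0.6); all cells were clustered with 2000 genes, 30 components and resolution 1. Scrublet called 4 of 2023 injured barcodes (0.198%), none EC_IMMAT, a share too low for the call to have worked, and none was removed; 26 EC_IMMAT cells had over 3 times the class's median UMIs. The ratio, its intervals and the thinning were tested on simulated data. Python 3.11.15, numpy 2.4.6, scipy 1.17.1 and pandas 2.3.3 were used. Alternatives concerned shared barcodes, depth, weighting, minimum level, added CPM, mitochondrial share, cycling cells and the classes compared. One result that met the rule for named genes is not reported here.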

Additional observations from a re-analysis of the deposited data

How the results depend on the processing

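No paired analysis was possible because each condition is 1 library and no groups share replicate numbers. The count of 0 genes at least 2-fold higher in EC_IMMAT was 0 under 7 of 15 alternatives. It was 1 without barcodes found in both libraries, with the mean of per-cell CPM, with the other classes weighted equally and without cells over 3 times their class's median UMIs, 2 with EC_PROLIF left out and with EC_BAR and both EC_CAP classes left out, 10 without cells with 2 or more mitosis genes, and 12 at 3000 UMIs per cell. For the alternative without such cells, called cycling below, mitosis genes were counted over all UMIs of a cell. Deeper cells thus met the rule more easily than at 3000 UMIs: Mki67 was found in 14.2% of EC_IMMAT cells without thinning and in 4.33% with it. The 140 lower genes became 232 at 3000 UMIs per cell, 35 at a minimum of 50 CPM and 230 with no minimum. Against EC_TIP, the 119 higher and 150 lower genes became 384 and 391 at 3000 UMIs, 218 and 240 without cycling cells and 41 and 63 at 50 CPM. Against EC_VEN-PV+, 54 and 201 became 114 and 357 at 3000 UMIs and 20 and 82 at 50 CPM, and 86 were higher with 1 CPM added. Against EC_CAP-PV-, 85 and 223 became 433 and 625 at 3000 UMIs, 146 and 348 with per-cell means and 25 and 91 at 50 CPM, and 179, 148 and 145 were higher without cycling cells, with 1 CPM added and with no minimum. The share of EC_IMMAT stayed within its interval under the alternatives run. Clustering gave 2 groups at resolution 0.3 and 7 at resolution 1, and keeping shallower partners gave 52 intact cells. Cell cycle genes reversed. With EC_PROLIF left out, log2 ratios were Birc5 0.67, Bub1b 0.27, Hist1h2ap 0.50, Hmgb2 0.12, Pclaf 0.14, Rrm2 0.0188, Tk1 0.31 and Ube2c 0.74, and without cycling cells Birc5 0.053, Bub1b 0.14, Hist1h2ap 0.44, Hmgb2 0.13, Pclaf 0.17, Rrm2 0.14 and Ube2c 0.38. Both alternatives remove EC_PROLIF cells by construction; for the other changes the cause was not tested. Depth limits what 3000 UMIs per cell can show for genes near 10 CPM.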

Other observations

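Lrg1, a secreted modulator of TGF-beta signals that is abundant in venules, was found together with Rgcc in 129 of 254 EC_IMMAT cells at 3000 UMIs per cell (50.8%, 44.5 to 57.1%). The share was 30.5% in EC_TIP (21.5 to 40.8%), 15.3% in EC_VEN-PV+ (11.7 to 19.4%) and 43.7% in EC_CAP-PV- (31.9 to 56.0%), so the interval of EC_IMMAT lay above those of EC_TIP and EC_VEN-PV+ and overlapped that of EC_CAP-PV-. It lay below that of EC_CAP-PV+, where 11 of 12 cells had both genes (91.7%, 61.5 to 99.8%). In EC_VEN-PV-, where Rgcc was scarce, the share was 2.59%.

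Genes of the actin cytoskeleton and microtubules took a median of 4% of the UMIs of an EC_IMMAT cell (quartiles 3.33 and 4.77%), against 6.13% in EC_TIP (4.92 and 7.15%) and 3.83% in EC_VEN-PV+ (3.17 and 4.49%). The median was 4.33% in EC_PROLIF, 3.8% in EC_ART, 3.3% in EC_CAP-PV-, 3.23% in EC_VEN-PV- and 2.33% in EC_BAR. EC_IMMAT cells therefore lay near EC_VEN-PV+, EC_ART and EC_PROLIF in this list and below the tip class. Imprinted growth genes took a median of 0.3% in EC_IMMAT, the same as in EC_TIP, against 0.167% in EC_ART, EC_BAR and EC_VEN-PV-. MHC genes summed to 4009 CPM in EC_IMMAT, level with 4009 CPM in EC_TIP, above 3750 CPM in EC_PROLIF and below 4793 to 5717 CPM in the other 5 classes with at least 20 cells.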
